A study of Arabidopsis thaliana with 18 samples.

Results

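Roots of the NRT1.1 deletion line chl1-5 were compared with roots of wild type Columbia plants (col) on Affymetrix expression arrays. The comparison used 3 chl1-5 arrays and 3 col arrays, taken by the genotype in the sample titles, out of 18 arrays in all. All plants were seedlings raised in vitro for 8 days on medium with 10 mM NH4NO3, and total RNA came from the root. The remaining 12 arrays, 3 each, held roots of chl1-9, chl1-12, T101A and T101D plants grown alike. chl1-9 is known as a point mutant of NRT1.1, the lesion of chl1-12 is not described in the labels, and T101A and T101D carry a changed threonine of the same protein in a background that the labels do not state. The labels do not say that the arrays of a genotype came from separate cultures, so the spread behind the p-values is that of these samples and may be technical.

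NRT1.1, also called CHL1 and NPF6.3, is a plasma membrane protein of the root that imports nitrate and also senses it, and it was first found through mutants that resist chlorate. As a sensor it acts on the genes of nitrate uptake and assimilation, and as a transporter it also moves auxin, which links nitrate supply with the outgrowth of lateral roots. In chl1-5 a deletion removes the gene, so that the transport and the sensing by this protein are both lost.

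Probe set levels are intensities on a linear scale, with every array scaled to a common trimmed mean. Differences are chl1-5 minus col on the scale of log2(intensity + 16), given with their SE, and folds are these differences turned back, so both understate the change of dim genes. A gene was called higher or lower at a limma adjusted p under 0.05. Array medians ran from 184 to 197, and between 17.0% and 18.4% of the probe sets of these 6 arrays lay under an intensity of 16. Across probe sets, chl1-5 arrays correlated with each other at 0.987 or more and col arrays at 0.984 or more, while chl1-5 arrays correlated with col arrays between 0.981 and 0.985. The 5' signal of a GAPDH control over its 3' signal, a sign of RNA length, was 0.909, 0.806 and 0.923 in chl1-5 roots, against 0.740, 0.797 and 0.770 in col roots, with no overlap. A second GAPDH control gave 0.974, 1.04 and 0.877 in chl1-5 roots, against 0.957, 1.09 and 1.01 in col roots, and there the genotypes overlapped. The part of this ratio in the results was not tested.

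No probe set was named for NRT1.1 in the annotation, so the deleted gene could not be read by name and was not used to check the labels. The annotation lists no gene for 8730 probe sets, and whether any of these measures NRT1.1 was not tested. Genes count as measured here only through a probe set that lists that gene alone, so neighbours without such a probe set are left out. Of the 20 measured genes that lie nearest to NRT1.1 in locus order, 1 was higher and 0 were lower in chl1-5, with differences from -0.31 to 0.75. The higher one was FMO, which encodes a flavin monooxygenase and stood at 1102, 1380.3 and 1435 in chl1-5 roots, against 770.2, 753 and 780.0 in col roots. Its arrays did not overlap between the genotypes, and the difference was 0.75 ± 0.12 (adjusted p = 0.00297).

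The largest difference of all belonged to probe set 264348_at, for which the annotation lists no gene. Whether this probe set measures the deleted gene itself was not tested. The intensity of 264348_at was 3.07, 2.24 and 29.0 in chl1-5 roots, against 7179.9, 6283 and 6322 in col roots. It was under the intensity of 16 in chl1-5 replicates 1 and 2 and above it in replicate 3, and every chl1-5 array was far below every col array, a difference of -8.04 ± 0.24 (adjusted p = 8.21e-11). A further unnamed probe set, 264371_at, had 40.0, 39.0 and 89.6 in chl1-5 roots, against 4500.4, 4632 and 4977 in col roots, and 253505_at had 31.8, 50.2 and 4.04 in chl1-5 roots, against 492, 916 and 773 in col roots. Those differences were -6.10 and -4.18, and no chl1-5 array reached a col array in either, as the choice of probe sets required. The unnamed probe sets with the largest rises were 253036_at at 187, 100.1 and 124 in chl1-5 roots, against 5.8, 2.89 and 4.24 in col roots, and 248970_at at 2814, 1929 and 2020.3 in chl1-5 roots, against 441, 327 and 334 in col roots. The next, 247591_at, had 147, 116 and 161 in chl1-5 roots, against 9.29, 4.68 and 36.8 in col roots, and its call was lost in a fit of the 6 arrays alone (adjusted p = 0.0587).

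Of 22746 probe sets, 495 were called, 308 higher and 187 lower in chl1-5. Those are 1.35% and 0.822% of all probe sets, 2.18% together, and the counts in gene lists below are to be read beside them. The lists and their members were chosen with earlier results of these data known, so their counts stand as a description. At an unadjusted p under 0.05 there were 3071 probe sets. In 494 of the 495 there was no overlap between chl1-5 and col arrays, a pattern that 21.4% of all probe sets showed. Lack of overlap in called genes is given below as a description and adds nothing to the call. The higher probe sets were more numerous, but changes of at least 2-fold were split into 69 higher and 80 lower. Among the higher ones, 161 had 1 listed gene, 1 had several and 146 had none, and among the lower ones these numbers were 83, 9 and 95. A fit of the 6 arrays alone called 135, where 64 were higher and 71 lower. Leaving out chl1-5 replicate 1, 2 or 3 left 280, 317 or 216 calls, and leaving out col replicate 1, 2 or 3 left 327, 265 or 332.

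**Figure D1:**
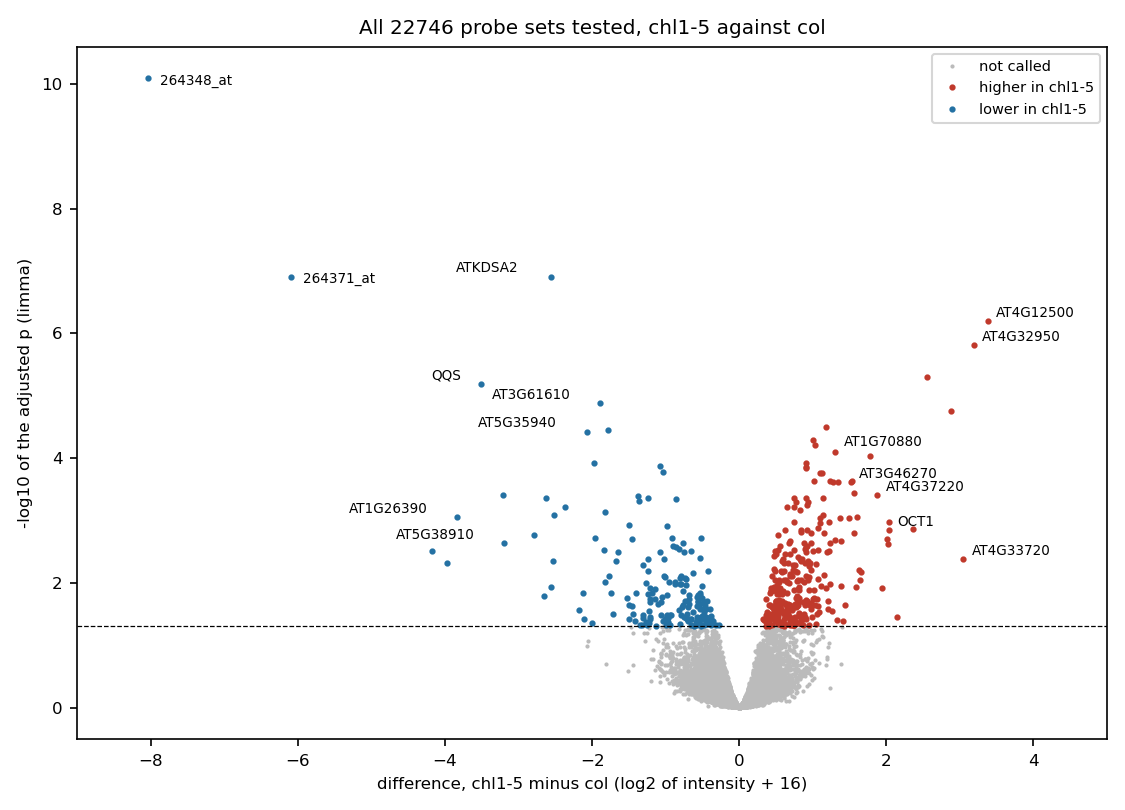
Each point is 1 of 22746 probe sets, with the difference of chl1-5 minus col in log2(intensity + 16) on the x axis and -log10 of the limma adjusted p on the y axis, and the dashed line marks an adjusted p of 0.05. The 308 red points are called higher and the 187 blue ones lower, and 264348_at and 264371_at lie apart at differences of -8.04 and -6.10.

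Genes of nitrate signalling moved in both directions, with more lower than higher. Of 30 listed genes 9 were measured, and 1 was called higher and 4 lower, beside 1.35% and 0.822% of all probe sets. AT4G32950, a type 2C protein phosphatase gene induced by nitrate in wild type plants, was at 546, 479 and 316 in chl1-5 roots, against 37.0, 36.2 and 28.2 in col roots. The chl1-5 arrays were all far above the col arrays, by 3.19 ± 0.22 (adjusted p = 1.53e-06). The lower genes were AT1G49500, which responds to nitrate, AT5G62720, which encodes a membrane protein, and AT3G25790 (HHO1) and AT1G25550 (HHO3), which encode repressors that damp the nitrate response. AT1G49500 had 874, 1139.6 and 943 in chl1-5 roots, against 1654, 2584 and 2997 in col roots, and AT3G25790 had 258, 235 and 229 in chl1-5 roots, against 517, 389 and 365 in col roots. AT1G25550 had 581, 646 and 544 in chl1-5 roots, against 811, 797 and 854 in col roots, and AT5G62720 had 367, 354 and 375 in chl1-5 roots, against 510.0, 502 and 484 in col roots. In each of these the highest chl1-5 array stayed below the lowest col array, while the differences ran from -0.43 to -1.24. The other repressor genes measured, AT1G68670, AT1G49560 and AT4G37180, were at -0.12, -0.01 and 0.12 and did not pass. AT2G48080, another nitrate responsive gene, was at 0.51 with an adjusted p of 0.262. The median of the 9 genes was -0.12, beside -0.03 over all probe sets. Only AT4G32950 passed in a fit of the 6 arrays alone, 2 of the 9 passed without chl1-5 replicate 3 or without col replicate 1, and 3 without chl1-5 replicate 1, col replicate 2 or col replicate 3. AT5G62720 lost its call without any 1 of the 6 arrays, AT1G25550 without any but chl1-5 replicate 2, and AT3G25790 without chl1-5 replicate 3 or col replicate 1.

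Among genes of nitrate uptake and assimilation, 4 of 22 were measured and 0 were called. They were NRT2.5, a high affinity nitrate transporter gene of starved roots, at -0.08, and the 6-phosphogluconate dehydrogenase genes AT1G64190, AT3G02360 and AT5G41670 at -0.03, 0.07 and 0.31. NRT2.5 was dim in both genotypes, at 28.7 ± 12.5 in chl1-5 roots and 29.9 ± 0.765 in col roots (mean ± SD, n = 3 each). None of the 18 listed genes of ammonium transport and amino acid assimilation was measured by a named probe set.

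NRT1.1 belongs to the NPF family, whose members carry nitrate, peptides, hormones and glucosinolates. Of 53 genes 34 were measured, and 3 were called lower and 1 higher, beside 0.822% lower and 1.35% higher over all probe sets. AT1G59740 had 162, 146 and 143 in chl1-5 roots, against 249, 266 and 305 in col roots. AT2G26690 (NRT1.4), a nitrate transporter known from leaf petioles, had 209, 187 and 174 in chl1-5 roots, against 319, 347 and 320.1 in col roots, and AT3G53960 had 49.7, 91.0 and 82.3 in chl1-5 roots, against 142, 149 and 218 in col roots. All 3 had every chl1-5 array below every col array, with differences of -0.79 ± 0.14, -0.74 ± 0.15 and -1.05 ± 0.21. AT3G45710, which lies in a cluster of NPF genes expressed in roots, was bright and higher, at 2897, 2369 and 2334 in chl1-5 roots, against 1738, 1949.5 and 1651 in col roots (0.50 ± 0.12, adjusted p = 0.0377). Its cluster neighbours AT3G45680, AT3G45700 and AT3G45720 were at -0.23, -0.13 and -0.10 and did not pass. GTR1 and GTR2, which import glucosinolates, were at -0.24 and 0.07. The family median was -0.09. AT1G59740 passed in every alternative run for it, AT3G45710 lost its call without any 1 of the 6 arrays, AT2G26690 without chl1-5 replicate 2 or 3 or col replicate 2 or 3, and AT3G53960 without chl1-5 replicate 1 or col replicate 3. The number of NPF genes called was 1 without col replicate 3, 2 in a fit of the 6 arrays alone and 2 without chl1-5 replicate 1, 2 or 3 or col replicate 2.

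CC-type glutaredoxins are small redox proteins of land plants, and some of them travel from shoot to root as signals of nitrogen demand. Of 20 genes 16 were measured, and 3 were higher and 0 lower, beside 1.35% and 0.822% of all probe sets. AT1G06830 (CEPD1), a gene for such a mobile signal, had 189.9, 383 and 350.0 in chl1-5 roots, against 66.0, 92.0 and 108 in col roots, a difference of 1.59 ± 0.30. AT4G33040 had 614, 454 and 610.0 in chl1-5 roots, against 329, 275 and 265 in col roots, a difference of 0.90 ± 0.14 (adjusted p = 0.00266). AT3G62960 was dim, at 31.8, 46.3 and 35.5 in chl1-5 roots, against 4.31, 3.01 and 4.96 in col roots, and all col arrays lay under the intensity of 16. The members that did not pass included AT4G15690 (1.14, adjusted p = 0.0745), AT2G30540 (1.002, adjusted p = 0.131) and GRX480, a regulator of defence genes (0.47). ROXY1 and ROXY2, known from flower development, were at -0.14 and 0.63. In all, 13 of the 16 were above 0 and the median was 0.49, and without col replicate 1 it was 0.29. The call of AT1G06830 was lost without chl1-5 replicate 2, chl1-5 replicate 3 or col replicate 1, so that 1 of the 16 passed there, and that of AT3G62960 was lost without any 1 of the 6 arrays. AT4G33040 lost its call in the fit of the 6 arrays alone, where only 1 of the 16 passed.

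Purine breakdown returns nitrogen from nucleic acids through the ureides allantoin and allantoate, and 2 of the 3 measured genes of this route were called higher. ALN, which encodes allantoinase, had 1021, 863 and 938 in chl1-5 roots, against 522, 647 and 581 in col roots. AAH, which encodes the enzyme that takes ammonium from allantoate, had 1451, 1566 and 1622 in chl1-5 roots, against 838, 1121 and 1172 in col roots. The arrays did not overlap in either gene, and the differences were 0.68 ± 0.10 (adjusted p = 0.00231) and 0.57 ± 0.12 (adjusted p = 0.0265). UGLYAH, of a later step of the same route, was at -0.33 and did not pass. This list of 8 genes, 3 of them measured, was written after the called genes had been seen, so its count stands as a description. AAH lost its call without chl1-5 replicate 1, 2 or 3 or col replicate 1, and neither gene passed in a fit of the 6 arrays alone.

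The largest rise of a named gene was that of AT4G12500, a gene for a secreted hybrid proline-rich protein of the EARLI1 type, at 1232, 1081 and 1031 in chl1-5 roots, against 108, 99.1 and 72.7 in col roots. Its chl1-5 arrays were all about an order of magnitude above the col arrays, a rise of 10.4-fold (adjusted p = 6.32e-07). OCT1, a carnitine transporter gene, had 1032, 1242 and 1524 in chl1-5 roots, against 158, 364 and 429 in col roots, a rise of 4.1-fold, and its call was lost in a fit of the 6 arrays alone (adjusted p = 0.0923). AT4G37220, of a cold acclimation protein family, had 328, 258 and 233 in chl1-5 roots, against 56.8, 86.2 and 47.9 in col roots, and AT3G46270, which is related to receptor kinases, had 475, 489 and 433 in chl1-5 roots, against 146, 159 and 152 in col roots. The replicates of AT3G46270 were close together in both genotypes, and its rise was 2.86-fold (adjusted p = 2.41e-04). AT5G04120, of the phosphoglycerate mutase family, had 1732, 1547 and 1342 in chl1-5 roots, against 832, 579 and 359 in col roots, a wide spread in col. Its call was lost without chl1-5 replicate 1, 2 or 3, without col replicate 2 or 3 and in a fit of the 6 arrays alone.

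Further down the list, AT1G70880, a gene of the Bet v I allergen family, had 349, 315 and 431 in chl1-5 roots, against 149.9, 139 and 123 in col roots (adjusted p = 7.92e-05). AT5G64550 had 251, 223 and 231 in chl1-5 roots, against 82.9, 82.1 and 74.3 in col roots, and AT5G43590, which encodes a patatin-like lipid hydrolase, had 113, 78.2 and 86.0 in chl1-5 roots, against 18.3, 34.7 and 25.9 in col roots. AT1G19960 was at 1538, 1856 and 2616 in chl1-5 roots, against 696, 842 and 681 in col roots. CHX16, a cation and proton exchanger gene, had 637, 479 and 510.2 in chl1-5 roots, against 233, 274 and 199 in col roots, and AT3G20460, a gene of the sugar transporter superfamily, had 460.5, 406 and 493 in chl1-5 roots, against 183, 237 and 142 in col roots. The rises of these 6 genes ran from 2.22-fold for CHX16 to 2.62-fold for AT1G19960. No arrays overlapped in any, as the choice of genes required. AT1G19960 lost its call without chl1-5 replicate 3 and in the fit of the 6 arrays alone, where AT3G20460 lost it too.

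**Figure D2:**
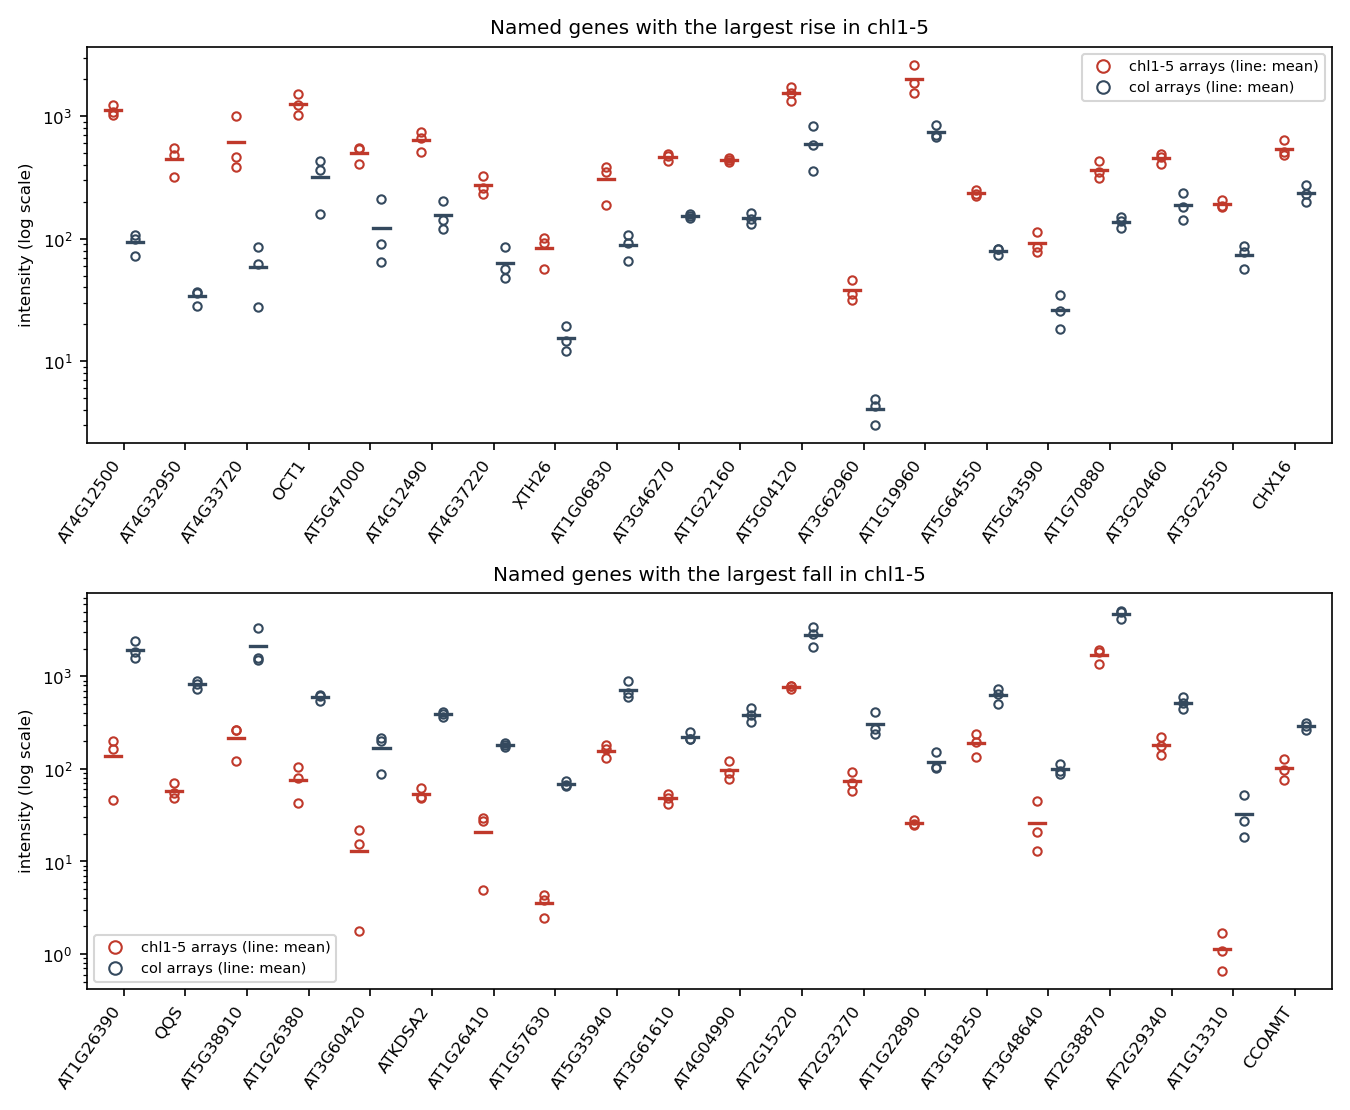
Intensity on a log axis in each chl1-5 array (red, left of each pair) and each col array (dark blue, right), with lines at the means of 3 arrays, for the 20 named genes with the largest rise (top) and the 20 with the largest fall (bottom). In each gene shown the arrays of the genotypes do not overlap, as the choice of genes required, and AT4G12500 stands at 1031 to 1232 in chl1-5 roots against 72.7 to 108 in col roots.

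Root hair genes were higher as far as they passed. Of 45 listed genes 12 were measured, and 4 were called higher and 0 lower, beside 1.35% and 0.822% of all probe sets. AT3G49960 and AT4G26010 encode peroxidases of the hair cell wall. AT3G49960 had 1419, 1144 and 1312 in chl1-5 roots, against 664, 654 and 484 in col roots, and AT4G26010 had 4208, 3580.5 and 3164 in chl1-5 roots, against 1998, 2557 and 2218 in col roots. AT5G04960, a pectin methylesterase gene, had 1983, 1518 and 1603 in chl1-5 roots, against 1034, 885 and 684 in col roots, and AT3G54580, which encodes an extensin, a structural protein of the wall, had 304, 224 and 255 in chl1-5 roots, against 146, 147 and 169.7 in col roots. In all 4 genes the chl1-5 arrays lay above the col arrays, by 1.09 ± 0.15, 0.69 ± 0.14, 0.97 ± 0.16 and 0.70 ± 0.15. The other 8 were also above 0 without passing, among them the hair expansin genes EXPA7 (0.18) and EXPA18 (0.36) and the peroxidase gene AT1G30870 (0.37). The median of the 12 was 0.45, beside -0.03 over all probe sets, of which 9972 of 22746 lay above 0. Their summed intensity was 16151, 13683 and 13644 in chl1-5 roots, against 9578, 11050 and 8902 in col roots, without overlap. In whole roots, more hair cells and more of these transcripts per hair cell cannot be told apart. The number called was 2 without chl1-5 replicate 1 or without col replicate 1, and 0 in the fit of the 6 arrays alone. AT4G26010 also lost its call without chl1-5 replicate 2 or col replicate 3, and AT3G54580 without chl1-5 replicate 3 or col replicate 2.

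Other tissue markers gave little to set beside this. None of the 6 genes of hair cell fate was measured. Of 22 markers of green shoot tissue 4 were measured and 0 were called, with a summed intensity of 2361, 1666 and 2228 in chl1-5 roots, against 2151, 1816 and 2662 in col roots. Those sums overlapped, and the least different member was PRK, a Calvin cycle enzyme gene, at -0.04. Of 20 root markers only PYK10, a root beta-glucosidase gene, was measured, and it was bright in both genotypes at 22043, 19696 and 19987 in chl1-5 roots, against 20509, 18062 and 19395 in col roots.

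Other families of the cell wall had from 0 to 4 called members. XTH26 encodes an enzyme that cuts and rejoins xyloglucan chains and had 100.8, 57.0 and 92.9 in chl1-5 roots, against 14.7, 12.2 and 19.5 in col roots, and XTH20 had 418, 402 and 358 in chl1-5 roots, against 296, 206 and 193 in col roots. These were 2 of 10 measured genes of that family, whose median was -0.09, and the call of XTH26 was lost without chl1-5 replicate 3 and that of XTH20 without chl1-5 replicate 1, col replicate 2 or col replicate 3. Of 55 class III peroxidase genes, which include both hair peroxidases above, 3 were higher and 1 lower, beside 1.35% and 0.822% of all probe sets. The third higher one, AT5G47000, had 535, 404 and 554 in chl1-5 roots, against 209, 90.6 and 64.9 in col roots, a rise of 4.08-fold, and the lower one, AT3G28200, had 597, 622 and 594 in chl1-5 roots, against 815, 835 and 769 in col roots. AT3G28200 lost its call without any 1 of the 6 arrays and with arrays centred on their medians. None of 19 expansin genes and 1 of 12 extensin genes, AT3G54580, passed. The number of peroxidase genes called was 2 without chl1-5 replicate 1, chl1-5 replicate 2, col replicate 1 or col replicate 3, and 0 in the fit of the 6 arrays alone.

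Some receptor kinases of the leucine-rich repeat class were higher. The leucine-rich repeat kinases of subfamily I carry a malectin-like domain outside the cell, and several are known to respond to microbes or to salt. Of 43 genes 32 were measured, and 6 were called higher and 0 lower, beside 1.35% and 0.822% of all probe sets. The list was chosen with earlier results of these data known, so its count stands as a description. AT1G51830 was the brightest of the 6, at 2393, 2338 and 2589.8 in chl1-5 roots, against 1693, 1587 and 1472 in col roots. AT1G05700 had 366, 370.2 and 363 in chl1-5 roots, against 180.2, 170.1 and 207 in col roots, and AT1G07550 had 142, 129.7 and 142 in chl1-5 roots, against 58.3, 57.1 and 63.9 in col roots. In these genes the replicates of a genotype lay close together, and the differences were 0.62 ± 0.09, 0.93 ± 0.12 and 1.02 ± 0.11. AT1G07560, the neighbour of AT1G07550, had 867, 754 and 673 in chl1-5 roots, against 524, 459 and 452 in col roots. AT1G51840, the neighbour of AT1G51830, had 167, 186 and 159 in chl1-5 roots, against 73.9, 103 and 59.4 in col roots, and AT4G20450 had 76.8, 45.9 and 43.6 in chl1-5 roots, against 30.8, 20.8 and 27.5 in col roots. Each of these 3 lost its call without chl1-5 replicate 1 and without 3 or 4 other arrays, with adjusted p over all arrays of 0.0279, 0.0179 and 0.0362. Genes in the same cluster on chromosome 1 that did not pass were AT1G51850 (0.43), AT1G51860 (0.31) and AT1G51890 (0.12). The family median was 0.15, and 0.35 among members above the lowest quartile of level. AT1G05700 and AT1G07550 passed in every alternative run for them, and the number called was 3 without chl1-5 replicate 1 or col replicate 3 and 2 in the fit of the 6 arrays alone. Sequence shared by members of such clusters can spread signal over their probe sets, and this was not tested.

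Some other regulators also rose. FLZ domain proteins are small zinc finger proteins of plants that bind SnRK1, the kinase of low energy. Of 13 measured genes 3 were higher and 0 lower, beside 1.35% and 0.822% of all probe sets. AT1G22160 had 439, 459 and 419 in chl1-5 roots, against 161, 132 and 146 in col roots, AT1G78020 had 693, 719 and 699 in chl1-5 roots, against 391.7, 269 and 402 in col roots and AT3G22550 had 180.1, 208 and 185 in chl1-5 roots, against 77.6, 87.9 and 56.9 in col roots. Their differences were 1.49 ± 0.20, 0.98 ± 0.15 and 1.21 ± 0.19, and all 3 passed with any 1 of the 6 arrays left out, while AT1G78020 did not pass in the fit of the 6 arrays alone. The list was written after the called genes had been seen, and its median was 0.20. RALFL27, a gene for a secreted peptide of the RALF family, had 2204, 2459 and 2546 in chl1-5 roots, against 1184, 1076 and 1066 in col roots, a rise of 2.15-fold (adjusted p = 1.76e-04), and was the only one of 11 RALF genes called. RR16, a response regulator gene induced by cytokinin, had 87.5, 90.1 and 70.4 in chl1-5 roots, against 38.6, 53.0 and 40.6 in col roots, and its call was lost without chl1-5 replicate 1 or 2 and without col replicate 1 or 3. None of 6 measured auxin genes passed, among them LBD16 (-0.11) and LBD29 (-0.16), which act in lateral root initiation.

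The PR-1-like family of secreted proteins had 4 of 19 measured members higher and 0 lower, beside 1.35% and 0.822% of all probe sets. This list, too, was chosen with earlier results of these data known, and its count stands as a description. AT4G33720 had 1003, 382 and 465 in chl1-5 roots, against 86.3, 61.8 and 27.7 in col roots, a rise of 8.25-fold with a wide spread between chl1-5 arrays. Its neighbour AT4G33730 had 655, 551 and 590.5 in chl1-5 roots, against 341, 341 and 240.2 in col roots. AT4G30320 had 512, 559 and 536 in chl1-5 roots, against 299, 350.4 and 262 in col roots, and AT4G25790 had 518, 414 and 477 in chl1-5 roots, against 261, 309 and 194 in col roots. No chl1-5 array overlapped a col array in these genes, as in 494 of the 495 called probe sets. The 3 smaller rises ran from 0.80 to 0.94. The family median was 0.03, and 0 members passed in the fit of the 6 arrays alone. AT4G25790 lost its call without chl1-5 replicate 1 or 3 and without col replicate 1 or 3. Of 7 EARLI1-type genes 2 were higher, AT4G12500 and AT4G12490. AT4G12490 had 506, 737 and 667 in chl1-5 roots, against 121, 143 and 203 in col roots, and its call was lost without chl1-5 replicate 2 or 3 and without col replicate 1. Their sequences are similar and can share signal, which was not tested. The other 5 members had differences from -0.42 to 0.68.

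Berberine-bridge-like oxidoreductases, some of which make defence compounds or oxidise wall sugars, held the largest fall of a named gene, that of AT1G26390. Of 22 measured genes 3 were lower and 1 higher, beside 0.822% and 1.35% of all probe sets. AT1G26390 had 203, 165 and 46.4 in chl1-5 roots, against 1833, 2432 and 1564 in col roots. AT1G26380 (FOX1), which acts in the making of a cyanogenic defence compound, had 79.0, 104 and 43.4 in chl1-5 roots, against 545, 629.6 and 607 in col roots, and AT1G26410 had 29.4, 27.4 and 4.96 in chl1-5 roots, against 172, 192 and 181 in col roots. All chl1-5 arrays lay far below the col arrays, and chl1-5 replicate 3 was the lowest array in each of these genes. The falls were 14.3-fold, 6.93-fold and 5.72-fold, with adjusted p of 8.88e-04, 0.00171 and 8.03e-04. In the same gene cluster, AT1G26420 was at -1.25 with an adjusted p of 0.0634, and AT1G26400 was at -0.01 and near the lowest intensities in both genotypes. The higher member, AT4G20820, had 294, 305 and 309.5 in chl1-5 roots, against 156, 128 and 238 in col roots, and its call was lost without chl1-5 replicate 2 or 3 and without col replicate 1 or 2. The family median was -0.02.

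Further genes among the 20 largest falls lay outside that family. AT5G38910, a gene for a germin-like protein of the cell wall, had 263, 265 and 121 in chl1-5 roots, against 1595, 3337 and 1509 in col roots, a fall of 9.16-fold. AT1G18980, of the same family, was bright and higher, at 7362, 6143 and 7029 in chl1-5 roots, against 4983, 5299.9 and 4092 in col roots, and the other 9 measured germin-like genes did not pass. AT1G18980 lost its call without chl1-5 replicate 1 or 3 and without col replicate 1 or 3. AT2G38870, which encodes a protease inhibitor of the PR-6 type, had 1817, 1924 and 1350.1 in chl1-5 roots, against 5021, 5090.0 and 4200.2 in col roots. AT1G57630, which encodes a TIR domain protein, was at 3.86, 2.45 and 4.34 in chl1-5 roots, against 67.8, 65.9 and 74.0 in col roots, and AT5G35940, a jacalin lectin gene, was at 129.9, 163 and 181 in chl1-5 roots, against 602, 666 and 898 in col roots. The fall of AT5G35940 was 4.21-fold (adjusted p = 3.77e-05), and the call of AT1G57630 was lost without chl1-5 replicate 2 or 3. The defensin genes PDF1.2 and PDF1.2b were dim and did not pass, at -0.49 and -0.09. Of 30 listed pathogen response genes 4 were measured, these and the EARLI1-type genes AT4G12490 and AT4G12500.

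QQS, which shifts carbon and nitrogen between starch and protein, had 54.9, 48.5 and 69.6 in chl1-5 roots, against 883, 739 and 831 in col roots, a fall of 11.4-fold (adjusted p = 6.42e-06). ATKDSA2 encodes a synthase of the sugar acid KDO, which pectin contains, and it had 50.1, 48.0 and 62.4 in chl1-5 roots, against 366, 391 and 418 in col roots. AT3G61610, of the galactose mutarotase-like superfamily, had 42.3, 53.8 and 48.5 in chl1-5 roots, against 249, 209 and 209 in col roots. Replicates were tight in both of these genes, with falls of 5.88-fold and 3.71-fold (adjusted p = 1.23e-07 and 1.30e-05). CCOAMT, of the caffeoyl-CoA methyltransferase family of phenylpropanoid metabolism, had 97.9, 129 and 76.6 in chl1-5 roots, against 292, 316 and 261 in col roots, and AT2G29340, a short-chain dehydrogenase gene, had 223, 141 and 175 in chl1-5 roots, against 593, 441 and 521 in col roots. AT3G60420, of the phosphoglycerate mutase family, had 15.6, 21.7 and 1.78 in chl1-5 roots, against 89.0, 219 and 198 in col roots. The call of CCOAMT was lost without chl1-5 replicate 1 or 3 or col replicate 2, and that of AT3G60420 without chl1-5 replicate 3, col replicate 2 or col replicate 3.

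AT2G15220, which encodes a secreted protein, had 782, 784 and 724 in chl1-5 roots, against 2856, 3425 and 2088 in col roots. AT3G18250 had 136, 240.0 and 197 in chl1-5 roots, against 507, 647 and 722 in col roots, and AT4G04990 had 121, 78.6 and 89.8 in chl1-5 roots, against 321, 452 and 378 in col roots. AT2G23270 had 93.4, 58.3 and 70.8 in chl1-5 roots, against 410.4, 272 and 237 in col roots, and AT1G22890 had 25.4, 24.5 and 27.8 in chl1-5 roots, against 151, 102 and 106 in col roots. Each of these 5 genes passed in every alternative run for it, with falls from 3.14-fold to 3.56-fold. The dim genes AT1G13310 and AT3G48640 fell by 2.73-fold and 2.84-fold, and their calls were lost without any 1 of the 6 arrays other than col replicate 3 for AT1G13310 and chl1-5 replicate 1 for AT3G48640. AT1G13310 had 0.654, 1.69 and 1.08 in chl1-5 roots, against 52.3, 27.2 and 18.5 in col roots, and AT3G48640 had 44.8, 12.999 and 20.9 in chl1-5 roots, against 114, 94.8 and 87.4 in col roots.

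Among genes of secondary metabolism, 2 of 3 measured genes of glucosinolate synthesis from methionine were higher. These sulphur and nitrogen containing defence compounds are made by chain elongation of methionine and later glucosylation. BCAT4, of the first elongation step, had 4331, 5288 and 6139 in chl1-5 roots, against 2560.2, 2436 and 3158 in col roots, and AT2G31790 (UGT74C1), a glucosyltransferase gene of the pathway, had 986, 1097 and 1204 in chl1-5 roots, against 427, 682 and 590.4 in col roots. The arrays did not overlap, with rises of 1.92-fold and 1.94-fold, while the glucosyltransferase gene UGT74B1 was at 0.08 and did not pass. Only these 3 of 26 genes were measured. BCAT4 lost its call without chl1-5 replicate 3, and 0 of the 3 passed in the fit of the 6 arrays alone. Of 12 glutathione transferase genes, whose products detoxify reactive compounds, GSTU20 and GSTU28 were called higher and 0 lower. GSTU20 had 1476, 1699 and 2027 in chl1-5 roots, against 1089.8, 1077 and 836 in col roots, GSTU28 had 1395, 1210.4 and 1143 in chl1-5 roots, against 845, 856 and 913 in col roots, and GSTU27 was at 0.63 without passing. Neither of the pair passed without chl1-5 replicate 2 or 3 or col replicate 2 or 3, and GSTU28 also lost its call without chl1-5 replicate 1 or col replicate 1. Of 51 UDP-glycosyltransferase genes, which attach sugars to small molecules, 2 were higher and 0 lower, beside 1.35% and 0.822% of all probe sets. The family median was -0.0015. UGT72E1, whose product glucosylates lignin precursors, had 1909, 1402 and 1369 in chl1-5 roots, against 883, 787 and 829 in col roots, and UGT72B3 had 167, 149.5 and 153 in chl1-5 roots, against 92.1, 59.8 and 70.2 in col roots. UGT72B3 lost its call without chl1-5 replicate 1, chl1-5 replicate 3 or col replicate 2, and neither gene passed in the fit of the 6 arrays alone. None of 28 cytochrome P450 genes was called, with differences from -0.60 to 0.67.

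Transport and metal genes held few calls. SWEET14, a sugar exporter gene, had 236, 245 and 269 in chl1-5 roots, against 127, 125 and 126 in col roots, a rise of 1.87-fold (adjusted p = 4.36e-04), and the other 15 measured SWEET genes did not pass. AT3G58060 (MTP8), which encodes a vacuolar transporter of manganese and iron, had 11.2, 5.44 and 6.66 in chl1-5 roots, against 44.8, 39.3 and 35.2 in col roots, a fall of 2.35-fold (adjusted p = 0.00411). All 3 chl1-5 arrays and none of the col arrays lay under the intensity of 16, so the size of the fall is set by the added constant. It was the only one of 5 measured iron genes called, and bHLH101 and PYE, regulators of iron deficiency, were at 0.23 and 0.01. bHLH115, another such regulator, had 2672, 2364 and 2472 in chl1-5 roots, against 1963, 1797 and 1804 in col roots, and its call was lost without chl1-5 replicate 1 or 3 and without col replicate 2 or 3. Of 14 genes of the low oxygen response AT5G66985 was called higher and 0 were called lower, beside 1.35% and 0.822% of all probe sets. The list median was 0.14. Differences ran from -1.48, which did not pass, to 0.97. AT5G66985 had 1883, 1718 and 1728 in chl1-5 roots, against 1288, 696 and 806 in col roots. Its call was lost without any 1 array other than col replicate 1. None of 27 photosystem and antenna genes, 11 LEA genes or 23 trichome birefringence-like genes was called.

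**Figure D3:**
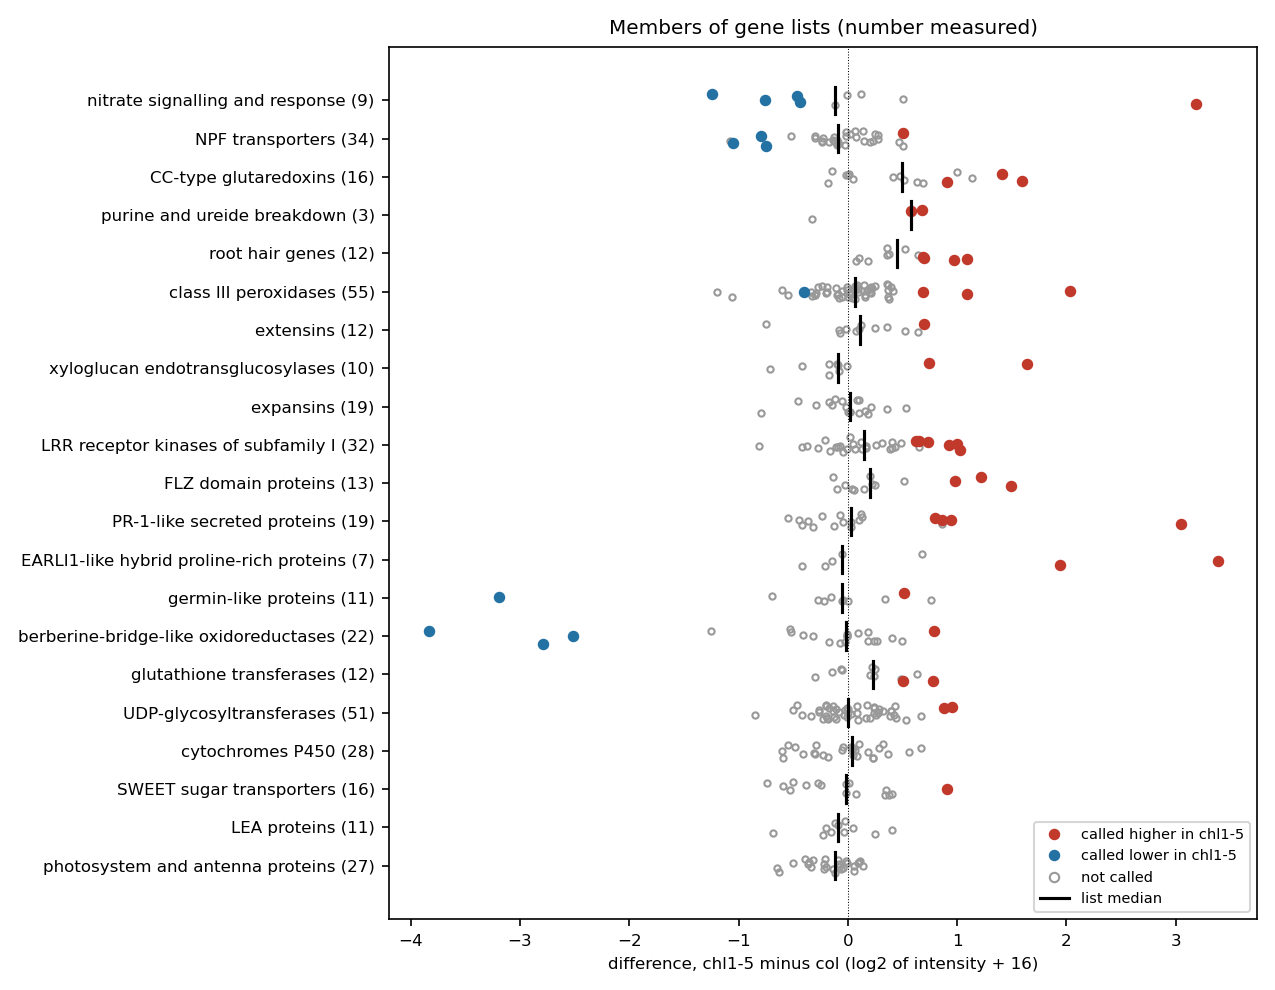
Each point is 1 measured gene of a list, placed by its difference of chl1-5 minus col in log2(intensity + 16), with filled red points called higher, filled blue points called lower, open points not called and a black bar at the list median. The root hair genes all lie right of 0 with a median of 0.45, while the berberine-bridge-like genes centre on -0.02 with 3 called falls from -3.83 to -2.52.

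Among 5841 pairs of measured genes that are next to each other in locus order, 5 pairs were both called in the same direction and 1 pair in opposite directions. The 5 pairs were AT1G07550 with AT1G07560, AT1G26380 with AT1G26390, AT1G51830 with AT1G51840, AT4G33720 with AT4G33730, and GAMMA-VPE with AT4G32950. GAMMA-VPE, a vacuolar protease gene, had 5399.5, 4801 and 4622 in chl1-5 roots, against 2987, 3628 and 3562 in col roots (0.54 ± 0.10). The opposite pair was AT1G22885, at 0.47, and AT1G22890, at -1.68.

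The deletion line was also set directly against the other NRT1.1 alleles. Against chl1-9, 54 probe sets were called, 39 higher and 15 lower in chl1-5, or 0.237% of all (0.171% and 0.0659% by direction), and against chl1-12, 9 were called, 0 higher and 9 lower, or 0.0396%. At an unadjusted p under 0.05 there were 2645 and 938. Of the 20 genes with the largest rise against col, 0 passed against chl1-9 or chl1-12, with differences of at most 0.84 and 0.66 in size. Of the 20 with the largest fall, 3 passed against chl1-9 and 2 against chl1-12. A difference that missed the threshold does not show equal levels.

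ATKDSA2 and AT3G61610 were lower in chl1-5 than in both of these alleles. ATKDSA2 had 50.1, 48.0 and 62.4 in chl1-5 roots, against 319.5, 424 and 376 in chl1-9 roots and 362, 378 and 359 in chl1-12 roots. Its differences were -2.48 ± 0.14 against chl1-9 (adjusted p = 1.24e-07) and -2.47 ± 0.14 against chl1-12 (adjusted p = 3.07e-07). AT3G61610 had 42.3, 53.8 and 48.5 in chl1-5 roots, against 173, 201 and 147 in chl1-9 roots and 168, 183 and 200.1 in chl1-12 roots. In both genes the chl1-5 arrays lay under every array of chl1-9, chl1-12 and col. T101A and T101D roots were also low, with ATKDSA2 at 47.3 ± 11.4 and 49.5 ± 7.75, and AT3G61610 at 58.9 ± 18.050 and 52.1 ± 3.89 (mean ± SD, n = 3 each). The unnamed probe set 264371_at was also low in chl1-5, T101A and T101D and high in the other genotypes, at 56.2 ± 28.9 in chl1-5, 3660.5 ± 749 in chl1-9, 5040.5 ± 155 in chl1-12, 16.3 ± 6.46 in T101A, 24.5 ± 17.992 in T101D and 4703 ± 246 in col roots. The T101 levels are given as a description, and chl1-5 was not tested against them.

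AT3G58060 (MTP8) was also lower in chl1-5, at 11.2, 5.44 and 6.66 in chl1-5 roots, against 65.3, 58.9 and 38.3 in chl1-9 roots and 37.8, 41.7 and 49.2 in chl1-12 roots. It stood at 38.2 ± 12.6 in T101A roots and 51.6 ± 17.7 in T101D roots, and every chl1-5 array lay under every array of the other genotypes. The differences from chl1-9 and chl1-12 were -1.55 ± 0.20 and -1.31 ± 0.20 (adjusted p = 0.00285 and 0.03). AT2G20150 was lower in chl1-5 than in chl1-9 (3.56 ± 1.07 against 36.4 ± 11.5, a difference of -1.40 ± 0.22).

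Probe set 264348_at, which passed against col, was also lower in chl1-5 than in both alleles, and its difference was the largest of the comparison with chl1-9. It had 3.07, 2.24 and 29.0 in chl1-5 roots, against 10586, 10147 and 11840.1 in chl1-9 roots and 368, 294 and 377 in chl1-12 roots. The differences were -8.76 ± 0.24 against chl1-9 and -3.85 ± 0.24 against chl1-12 (adjusted p = 2.39e-11 and 8.20e-07), so that the chl1-12 arrays lay between those of chl1-5 and chl1-9. T101A and T101D roots were high, at 5394 ± 250.3 and 11742 ± 204 (mean ± SD, n = 3 each).

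Some large direct differences lay in named genes that did not pass between chl1-5 and col. AT3G28550, an extensin-like root hair gene, had 778, 787 and 737 in chl1-5 roots, against 14.6, 1.91 and 2.87 in chl1-9 roots, while col roots had 651, 898 and 654. AT5G24240, of the phosphatidylinositol kinase family, had 39.9, 43.3 and 12.4 in chl1-5 roots, against 486, 553 and 651 in chl1-9 roots, and 24.2, 13.5 and 13.1 in col roots. SP1L5, a gene of the SPIRAL1-like microtubule proteins, had 127, 116 and 104 in chl1-5 roots, against 6399.9, 5678 and 6585 in chl1-12 roots, and 259.8, 192 and 137 in col roots. In all 3 genes the arrays of the other allele lay apart from those of chl1-5 and col. AT1G43590, unlike these 3 genes, was also called between chl1-5 and col (adjusted p = 0.0011). It differed from chl1-12 by -1.40 ± 0.15 and from col by 1.099 ± 0.15. It had 23.4, 20.5 and 25.9 in chl1-5 roots, 96.7, 65.8 and 105 in chl1-12 roots and 3.36, 1.24 and 2.37 in col roots. All col arrays of this gene lay under the intensity of 16, so the size of its difference from col is set by the added constant.

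Smaller rises of chl1-5 over chl1-9 were found for AT2G15220, the PR-1-like gene AT2G19970, the cytochrome P450 gene CYP71B23 and SWEET2, which encodes a sugar transporter of the vacuole. AT2G15220 had 763 ± 34.3 in chl1-5 roots, against 329.5 ± 127 in chl1-9 roots, and was lower than col in chl1-5. AT2G19970 had 1144 ± 135 in chl1-5 roots, against 503 ± 108 in chl1-9 roots. CYP71B23 had 1042 ± 74.4 in chl1-5 roots, against 480.0 ± 114 in chl1-9 roots, and SWEET2 had 602 ± 67.5 in chl1-5 roots, against 276 ± 44.1 in chl1-9 roots. Their differences ran from 1.09 to 1.23, with adjusted p from 0.00139 to 0.0479.

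**Figure D4:**
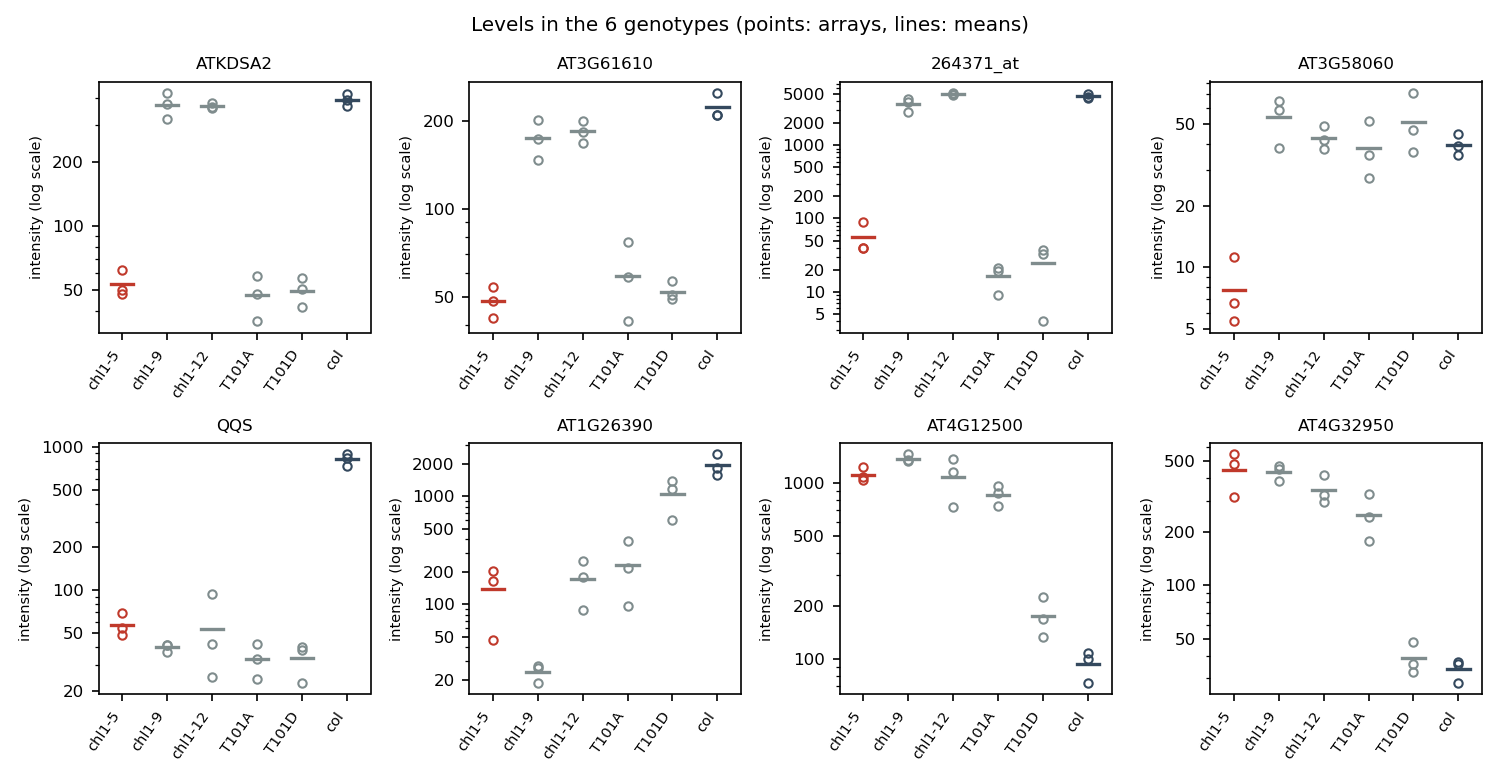
Intensity on a log axis in every array (points) of the 6 genotypes, with lines at the means of 3 arrays, for 7 named genes and probe set 264371_at. ATKDSA2, AT3G61610 and 264371_at are low in chl1-5, T101A and T101D and high in chl1-9, chl1-12 and col, AT3G58060 is low in chl1-5, and QQS is high in col.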

How the data were processed

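The authors deposited 1 table of intensity values on a linear scale for 22810 probe sets on 18 arrays. Per the labels' protocols, RNA was extracted with TRIzol and labelled with an Affymetrix 3' IVT kit. Which software and background correction preceded this is not given in the sources used here. In the values every array has a mean of 500 once 2% is trimmed at each end, so a change in total RNA is hidden. The number of arrays limits the precision, and a probe set's SD within a genotype had a median of 0.20 in log2 units.

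The 64 control probe sets were left out. Values were taken as log2(value + 16), and 1 limma 3.58.1 model (R 4.3.3) with 1 term for each genotype took in all 18 arrays and 22746 probe sets, without a replicate block. Each comparison was adjusted by the Benjamini-Hochberg method and called at an adjusted p under 0.05. The procedure was also run on simulated data with independent noise in each array, so variation shared between arrays was not covered. No result here rests on that run. Python 3.11.15 and matplotlib 3.10.9 made tables and plots.

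The platform annotation gave 1 gene for 13513 probe sets, several for 503 and none for 8730, and 13484 were matched to RefSeq (TAIR10.1). A gene in a list was read from its brightest probe set. Named were the 20 largest rises and 20 largest falls among called genes without overlap between arrays, called list members, the 3 largest rises and falls without a gene, and up to 5 rises and falls in each direct comparison with another allele, while further genes of the lists and neighbourhoods are named for context. Members and lists were chosen with earlier results of these data known, and family lists were edited after the annotation was seen. No sequences were used here. The alternatives were other pseudocounts, filters on dim probe sets, normalizations, fits and left-out arrays.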

Additional observations from a re-analysis of the deposited data

How the results depend on the processing

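The 495 calls against col became 867 when arrays were weighted, 135 when these 6 arrays were fitted alone and 216 to 332 without 1 array. The 54 calls against chl1-9 became 90 with a pseudocount of 64, 127 above the median level, 111 with an intensity trend, 10 when those 6 arrays were fitted alone and 19 to 53 without 1 array. The 9 calls against chl1-12 became 4 above the median level and 7 to 9 without 1 array. A replicate block, with arrays of the same number taken as paired, gave other counts: the comparisons with col, chl1-9 and chl1-12 then had 676, 63 and 8 calls. Deviations of same-numbered chl1-5 and col arrays correlated at 0.104, 0.017 and 0.074, those of chl1-5 and chl1-9 at 0.091, 0.063 and 0.098, and those of chl1-5 and chl1-12 at 0.142, 0.027 and 0.057. All 9 were above 0, while arrays of different number lay between -0.124 and 0.057. The deviations were taken from the mean of a genotype's own arrays, so within a genotype they sum to 0. Positive values for same-numbered arrays therefore go with negative ones elsewhere, and such contrasts are partly fixed in advance. In each comparison at least 1 same-numbered pair was at or under 0.1. Replicate 2 of chl1-5 correlated more with replicate 3 of col (0.056) and of chl1-12 (0.057) than with their replicate 2. Against chl1-9 every same-numbered pair was above every other pair, and those others lay between -0.086 and -0.008. The reported fit does not take the numbers as pairs, and whether same-numbered arrays belong together was not tested. Of the probe sets called against col, 71.9% were higher with arrays centred on their medians and 67.5% with quantile normalization, against 62.2% as reported. Of 87 probe sets named for the comparison with col, 36 passed in every one of up to 16 alternatives, 28 lost the call in 1 to 4 and 23 in 5 or more, and 0 changed direction. The cause of these shifts was not tested. Runs with left-out arrays and fits of the arrays compared used fewer arrays, and the filters left fewer probe sets. Signal limits dim genes: under an intensity of 16 the added constant sets the size of a difference.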

Other observations

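Further called genes, chosen here after their values were seen, included some that were lower in chl1-5. BBM, a transcription factor gene of root stem cells and embryos, was at -0.72 (log2, chl1-5 minus col), PRL, which encodes a subunit of the replication helicase, at -0.56, and the kinesin gene AT3G44050 at -0.56. SP1L2, a gene of the SPIRAL1-like microtubule proteins, was at -1.06, AT1G52560, which encodes a small heat shock protein, at -1.21, and AT4G16260, which encodes a beta-1,3-glucanase of the defence response, at -1.03.

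Among called rises, likewise chosen after their values were seen, MTP11, a manganese transporter gene, was at 0.69, SUFE2, whose product activates a sulphur donor for iron-sulphur clusters, at 0.69, and AOP1, of the oxygenase family that holds glucosinolate modifying enzymes, at 0.74. ARL, a gene that promotes organ growth through cell expansion, was at 0.77, and BAT1, a brassinosteroid acyltransferase gene, at 0.74.

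By locus code, the share of genes called higher was 1.43% on chromosome 1 (49 of 3427), 1.01% on chromosome 2 (22 of 2178), 0.696% on chromosome 3 (19 of 2729), 2.01% on chromosome 4 (39 of 1936) and 1.04% on chromosome 5 (31 of 2989). The share called lower ran from 0.435% on chromosome 5 to 0.788% on chromosome 1. These shares were not tested.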
